A study of Mus musculus with 7 samples.

Results

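The members described here are 6 mouse genes, Mef2a, Mef2c, Mef2d, Pou2f1, Pou2f2 and Pou2af1, chosen by name. Each gene was taken with 30 kb on either side of its body, as annotated by GENCODE M21 on the mm10 (GRCm38) assembly, and every ATAC-seq peak overlapping that window was counted as a member. The windows held 791 of the 647973 peaks in the 7 deposited lists. Overlapping peaks of the 7 lists were joined into 145247 regions, of which 170 lay in the windows, and these 170 are called elements below. Mef2a had 24 elements, Mef2c 45, Mef2d 15, Pou2f1 46, Pou2f2 26 and Pou2af1 14.

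ATAC-seq marks open chromatin by the DNA fragments it releases, and a peak is a stretch where fragments pile up above the background of the library. The study had 7 libraries, 1 in each of 7 groups. The WT pre-proB, proB and preB cells, successive stages of B-cell development in bone marrow, came from Ergfl/fl mice without Cre. The Erg KO pre-proB cells came from Rag1CreT/+;Ergdelta/delta mice, in which Cre under Rag1 control deleted the ETS factor Erg in lymphoid progenitors. The Rescue pre-proB, proB and preB cells came from mice with that deletion and the IgHVH10tar allele, which supplies an immunoglobulin heavy chain that is already rearranged. All Erg-deficient libraries therefore also carried the Cre allele that the WT libraries lacked. The sources used here do not give the age of the mice behind each library or say whether animals were pooled. The titles and source names of the 3 Rescue libraries conflict: the library titled pre-proB has proB as its source, the one titled proB has preB and the one titled preB has pre-proB. Stages below are those of the titles. With 1 library in a group no test between groups was possible, so a difference below is one between 2 libraries whose variation from animal to animal is not known.

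Mef2 proteins are MADS-box transcription factors that bind A and T rich sites, hold class IIa histone deacetylases at their targets and are switched to activation by kinase signals. In the B lineage Mef2c acts with Mef2d in early progenitors and Mef2c again in mature B cells. Pou2f1 encodes Oct1 and Pou2f2 encodes Oct2, POU-domain factors that bind the octamer sequence found in immunoglobulin promoters. Pou2af1 encodes OBF-1, a coactivator that joins Oct1 or Oct2 on the octamer and is largely restricted to B cells.

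Elements with large differences between stages are shown by the 300 bases around the summit of their highest peak, since the results below turn on them. Each sequence is the plus strand of GRCm38, read 5′ to 3′, and Mef2a, Pou2f1 and Pou2f2 lie on the minus strand. Capitals mark matches on either strand to any of 6 motifs: the MEF2 consensus (CTA, then 4 bases each A or T, then TAG or TAA), the octamer (ATGCAAAT), an ETS site (ACCGGAAGT or ACAGGAAGT), the EBF1 palindrome (TCCC, then any pair of bases, then GGGA), an E2A site (CAGCTG or CAGGTG) and a RUNX site (TGTGGTT). The MEF2, EBF1 and CAGCTG patterns can match both strands at the same bases, and each motif was searched on its own, so matches may overlap. The Pou2af1 promoter and Mef2c intron 8 windows hold no match. The first window is the Pou2af1 promoter and the others are 7 elements outside promoters.
Pou2af1 promoter, chr9:51213217-51213516: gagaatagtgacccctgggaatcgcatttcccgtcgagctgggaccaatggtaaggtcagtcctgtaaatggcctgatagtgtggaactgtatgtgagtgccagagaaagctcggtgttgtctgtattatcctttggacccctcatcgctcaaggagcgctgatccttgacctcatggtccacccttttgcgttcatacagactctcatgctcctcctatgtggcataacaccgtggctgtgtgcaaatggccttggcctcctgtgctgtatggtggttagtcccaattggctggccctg
Mef2a intron 10, chr7:67238989-67239288: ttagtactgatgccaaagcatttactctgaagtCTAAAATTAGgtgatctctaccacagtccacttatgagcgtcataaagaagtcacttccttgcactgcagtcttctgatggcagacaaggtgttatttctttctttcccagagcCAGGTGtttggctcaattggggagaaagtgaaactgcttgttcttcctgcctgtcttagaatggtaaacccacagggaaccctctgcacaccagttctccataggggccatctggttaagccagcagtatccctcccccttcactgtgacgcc
Mef2c intron 8, chr13:83649842-83650141: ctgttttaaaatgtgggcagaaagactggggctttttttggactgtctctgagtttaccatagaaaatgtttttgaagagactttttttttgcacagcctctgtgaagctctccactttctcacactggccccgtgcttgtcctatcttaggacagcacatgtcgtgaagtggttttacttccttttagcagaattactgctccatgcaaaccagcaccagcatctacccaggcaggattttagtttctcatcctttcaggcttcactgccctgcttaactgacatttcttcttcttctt
Mef2d upstream, chr3:88127800-88128099: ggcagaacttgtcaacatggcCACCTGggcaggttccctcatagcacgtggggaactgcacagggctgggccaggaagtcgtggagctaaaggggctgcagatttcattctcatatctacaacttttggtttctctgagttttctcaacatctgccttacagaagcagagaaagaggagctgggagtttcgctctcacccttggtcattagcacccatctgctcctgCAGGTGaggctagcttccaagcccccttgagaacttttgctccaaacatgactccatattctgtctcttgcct
Pou2f1 intron 2, chr1:165927916-165928215: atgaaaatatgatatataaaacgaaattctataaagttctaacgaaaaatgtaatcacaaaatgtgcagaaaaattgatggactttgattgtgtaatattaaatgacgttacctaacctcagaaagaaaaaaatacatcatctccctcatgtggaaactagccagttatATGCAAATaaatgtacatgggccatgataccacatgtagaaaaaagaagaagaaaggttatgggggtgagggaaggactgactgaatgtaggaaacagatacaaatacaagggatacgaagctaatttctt
Pou2f1 intron 1, chr1:165994131-165994430: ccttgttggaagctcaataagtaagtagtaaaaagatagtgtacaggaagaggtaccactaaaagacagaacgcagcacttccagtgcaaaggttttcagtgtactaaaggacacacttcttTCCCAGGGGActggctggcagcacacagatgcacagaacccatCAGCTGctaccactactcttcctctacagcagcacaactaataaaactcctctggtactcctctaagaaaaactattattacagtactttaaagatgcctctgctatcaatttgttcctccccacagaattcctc
Pou2f2 intron 5, chr7:25112586-25112885: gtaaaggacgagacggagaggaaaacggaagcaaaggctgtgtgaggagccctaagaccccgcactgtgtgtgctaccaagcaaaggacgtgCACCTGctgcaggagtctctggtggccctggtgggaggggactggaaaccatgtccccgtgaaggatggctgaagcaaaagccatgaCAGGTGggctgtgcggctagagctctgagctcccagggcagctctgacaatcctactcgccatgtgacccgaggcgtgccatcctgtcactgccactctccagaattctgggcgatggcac
Pou2f2 intron 1, chr7:25129627-25129926: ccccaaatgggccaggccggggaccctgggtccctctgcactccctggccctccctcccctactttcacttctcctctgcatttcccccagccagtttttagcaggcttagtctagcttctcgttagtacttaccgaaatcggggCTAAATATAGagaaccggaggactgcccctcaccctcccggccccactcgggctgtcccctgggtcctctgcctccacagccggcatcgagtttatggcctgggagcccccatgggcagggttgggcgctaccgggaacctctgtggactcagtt

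Levels are given as the fold that the peak caller MACS2 wrote for a peak, the pileup of fragments at the summit plus 1 over the background pileup of that library plus 1. An element has the fold of its highest peak in a library. The background pileup was 3.49 to 4.6 across libraries, and the lowest fold called was 2.32 to 2.63. An element without a peak therefore lay below the calling limit or was closed, and the lists hold no value for it. Intervals around a fold are exact 95% Poisson intervals on the summit pileup and cover counting error only. In sorted populations, fewer cells with an open element and less opening in every cell cannot be told apart.

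The sorted stages were checked against marker genes by whether a peak overlapped the promoter, defined as 1000 bp before to 1000 bp after an annotated start. Promoter peaks were found for 9, 6 and 7 of 10 B-lineage markers at the pre-proB stage (WT, Erg KO and Rescue) and for all 10 in each proB and preB library. Over all 21911 coding genes the share with a promoter peak was 61.4% to 65.5%. Of 10 T-lineage markers 5, 7 and 7 had a promoter peak in WT, Erg KO and Rescue pre-proB. In each proB library 5 had one, and in each preB library 3. Cd3d, Cd3e and Zap70 had none in any library. Cd8a had a fold of 19.2 to 30.2 in the pre-proB libraries, 6.9 in Rescue proB and no peak in the other later libraries. Cd3g had 10.47 to 15.01 early, 3.56 in Rescue proB and likewise none elsewhere. Cd28 fell from 48.01 to 54.33 early to 13.2 and 21.2 in WT and Rescue preB. Cd5 was higher in every later library than early, and Lck was higher at proB and lower at preB. Of 10 myeloid markers 4 to 6 had a promoter peak, and they moved in different directions. Itgam had a fold of 25.7 to 29.8 in the pre-proB libraries and 4.06 to 8.69 later, and Cebpa was also higher early. Csf1r ran the other way, with 7.37 to 8.94 early and 12.9 to 22.5 later. Csf3r had weak peaks in the pre-proB libraries alone, and Cebpe had them in later libraries alone. Of 10 plasmacytoid dendritic markers 9 or 10 had one, but their folds moved with stage. Siglech had 101 to 113 in the pre-proB libraries and 18.6 to 54.5 later, and Tlr7 31.4 to 38.4 early and 6.46 at most later. Bst2, Irf8 and Ccr9 were also higher in every pre-proB library than in any later one, while Tcf4, Tlr9 and Spib were lower. The part of these other cell types in the stage differences below was not tested.

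The 6 loci together had 100, 107 and 108 in WT, Erg KO and Rescue pre-proB, 119 and 128 in WT and Rescue proB, and 109 and 120 in WT and Rescue preB. These were 0.102% to 0.143% of the lists, with the 3 pre-proB libraries at 0.102% to 0.105% and the 4 later ones at 0.130% to 0.143%. The genes divided by stage in different directions, as the plot of peak counts and promoter folds shows. At Mef2a the 3 pre-proB libraries had 17, 20 and 19 peaks and the 4 later ones 7 to 12, so the groups of libraries did not overlap. At Pou2af1 the 3 pre-proB libraries had 2 peaks each and the later ones 10 to 12, again without overlap. How many other genes separate the libraries in this way was not counted. Over the whole lists, 34.1% of WT pre-proB peaks had no WT proB peak, and 31.9% of WT proB peaks had no WT pre-proB peak. Pou2f1 had 21 to 24 peaks in the pre-proB libraries and 27 to 34 in the later ones. Mef2c (27 to 36), Mef2d (12 to 16) and Pou2f2 (17 to 22) overlapped between stages.

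**Figure D1:**
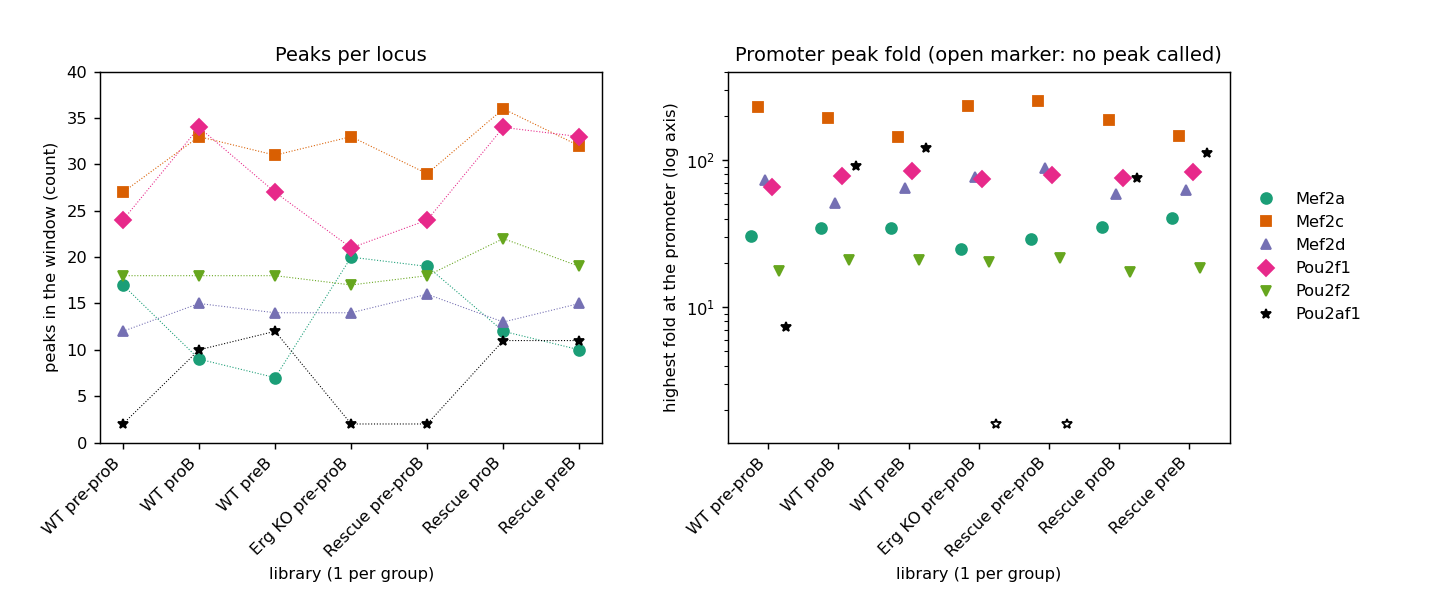
Peaks in the window of each gene (left, count) and the highest fold of a peak at its promoter (right, log axis) in the 7 libraries, 1 per group, with an open marker where no promoter peak was called. Mef2a and Pou2af1 counts separate the pre-proB libraries from the later ones in opposite directions, and Pou2af1 is the only one of the 6 promoters with a missing peak.

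Of the 170 elements, 54 had a peak in all 7 libraries, 31.8% against 32.0% of all 145247 regions. Another 52 were open in some proB or preB library and in no pre-proB library (30.6% against 23.5%), and 32 in some pre-proB library and in no later one (18.8% against 22.5%). The 54 elements in all libraries had a median highest fold of 26.5, the 52 later ones 5.17 and the 32 early ones 4.21, so most stage-limited elements were weak peaks. The 52 later elements were mostly intronic, 33 of them, with 13 upstream, 2 downstream and 1 in a promoter. Pou2f1 held 19 of them, Mef2c 14 and Pou2af1 11, whereas Mef2a held 10 of the 32 early elements and 2 of the later ones. The colour map of all elements shows these patterns by gene. Of the 170 elements, 46 also lay in the body of another annotated gene, 21 of them at Pou2f1 and 11 at Mef2a. Those at Pou2f1 lay in Cd247, which overlaps its 3′ end, or in the non-coding Gm26665 at its 5′ end, the main promoter element included. Those at Mef2a lay in Lysmd4, which overlaps its 3′ end, in 1700112J16Rik or in Gm44668.

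**Figure D2:**
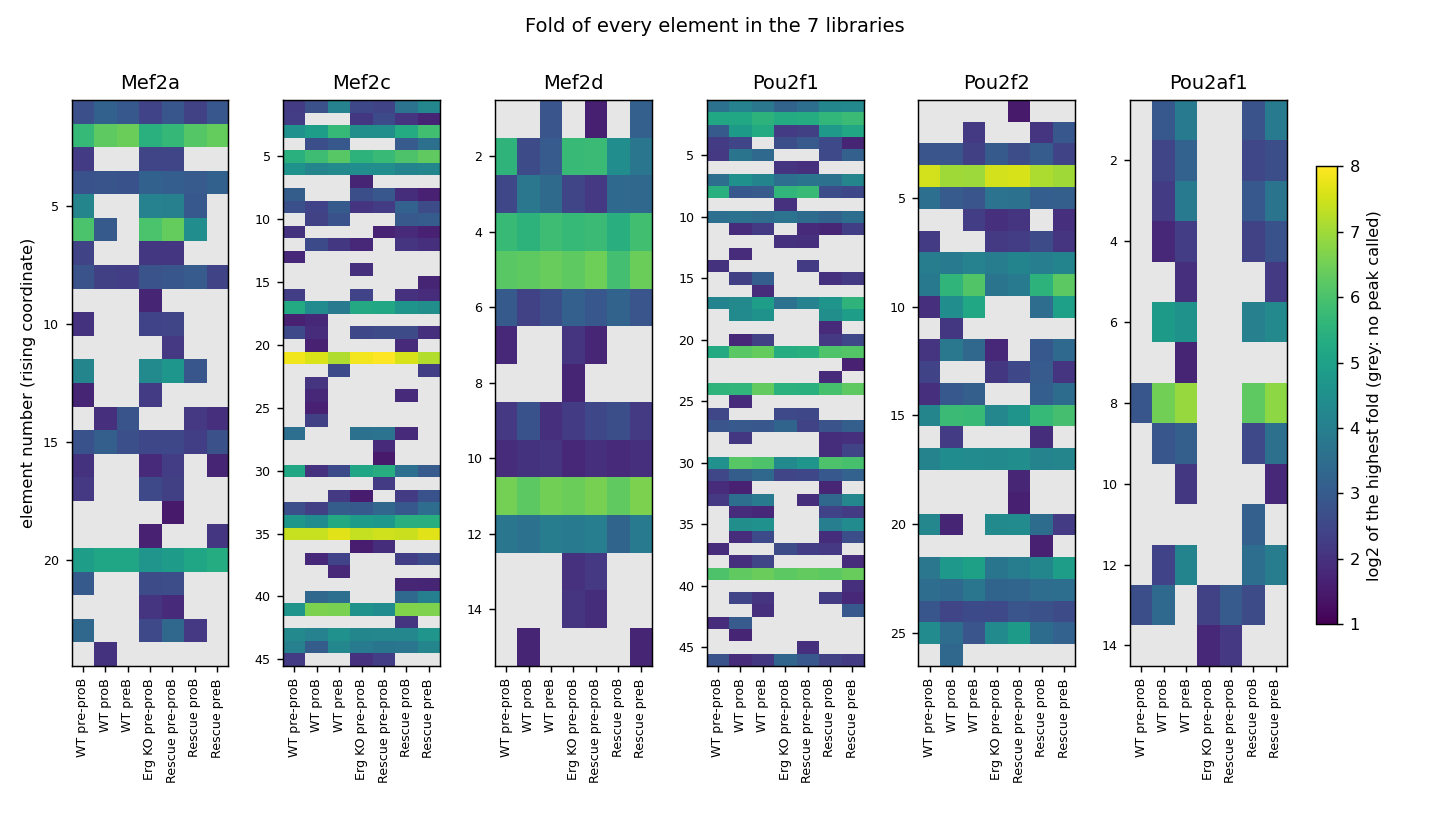
Log2 of the highest fold of each of the 170 elements (rows, by rising coordinate) in the 7 libraries (columns), grey where no peak was called. Pou2af1 is empty but for 2 elements in each pre-proB library, and Mef2a loses rows from the pre-proB to the later libraries.

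The motif counts were set beside all regions, each read over 300 bases around its highest summit. The 170 windows had a median of 45.7% G and C and 3 CG pairs, and all regions 48.3% and 3. Windows with 10 or more CG pairs were 20 of 170, 11.8% against 13.8%. At the promoters the CG pairs were 39 at the main Pou2f1 start, 28 at Mef2a and at Pou2f2, 24 at Mef2d, 8 at Pou2af1 and 5 at the highest Mef2c element. The MEF2 consensus was found in 11 of the 170 windows, 6.47% against 2.60% of all regions, and the octamer in 10, 5.88% against 2.72%. E2A sites were in 71 windows, 41.8% against 44.1%, and RUNX sites in 14, 8.24% against 13.5%. The EBF1 palindrome was in 3 windows (1.76% against 1.90%), and an ETS site in 2 (1.18% against 3.23%). All 3 EBF1 windows were among the 52 later elements, but the share among all later-only regions was not counted. Those 61928 bp past the nearest Pou2f1 start and 13482 bp past the nearest Pou2f2 start were called in WT proB alone, at 3.69 and 4.43. These are matches of letters and not measured binding. The RefSeq promoter table (GRCm38.p6, 250 bases before a start and 50 after) had 10 windows for the 6 genes. The MEF2 consensus was in 1 of them, at Mef2a, against 1.86% of all 32851 promoters, and the octamer in none of the 10, against 1.74%. The Mef2a match, CTAAAAATAG, lay at bases 249 to 258 of that window.

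Pou2af1 (ENSMUSG00000032053, chr9:51213708-51240080, plus strand) went from nearly closed to among the highest promoters of the 6. Its promoter element, chr9:51212374-51214724, had a fold of 7.37 in WT pre-proB and no peak in the other 2 pre-proB libraries, 91.8 and 76.2 in WT and Rescue proB, and 122 and 112 in WT and Rescue preB. WT proB was thus 12.5 times WT pre-proB, and the intervals, 83.9 to 100.2 and 5.24 to 10.1, were far apart. The WT pre-proB peak rested on a summit pileup of 37 fragments, against a lowest called pileup of 12 in each pre-proB library. In the same pre-proB comparison the B-lineage markers Cd79a, Vpreb1 and Pax5 had promoter folds of 11.4, 8.53 and 3.68 in WT and no promoter peak in Erg KO, and in Rescue pre-proB Cd79a had 3.57 and the others none. Igll1, Ebf1, Rag1, Cd22, Blk and Cd79b, of the same list, had promoter peaks in all 3 pre-proB libraries, at 8.34 to 32.2 in WT, 6.6 to 35.4 in Erg KO and 7.86 to 40.4 in Rescue. The part of such cells in the Pou2af1 difference was not tested. Read by source name, the library with a promoter fold of 112 would be Rescue pre-proB and the one without a promoter peak Rescue proB.

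The rest of the Pou2af1 locus followed the later stages. None of its 14 elements was open in all 7 libraries, and 7 were open in the 4 later libraries and in no pre-proB library, against 5.19% of all regions. The strongest of these, 2547 bp upstream of the start (chr9:51210703-51211788), had a fold of 27.9 and 16.5 in WT and Rescue proB and 24.3 and 19.6 in WT and Rescue preB. An element in intron 1, 12032 bp past the start, had 5.35 in WT proB and 18 in WT preB, with 11.6 in Rescue proB and 15.3 in Rescue preB. In Erg KO and Rescue pre-proB the 2 peaks of the window lay in exon 5, with folds of 5.13 and 8.04, and 44936 bp past the start, with 3.48 and 4.47. The exon 5 element had 6.4 in WT pre-proB and 10.5 and 6.01 in WT and Rescue proB, with no peak in either preB library. An intron 1 element 8160 bp past the start was called in Rescue proB alone, at 8.91.

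Pou2f2 (ENSMUSG00000008496, chr7:25087344-25179726), which encodes Oct2, kept a low fold at its main promoter throughout. Elements in its introns differed in whether and how they moved with stage. The promoter fold was 17.6, 20.2 and 21.6 in WT, Erg KO and Rescue pre-proB, 21 and 17.4 in WT and Rescue proB, and 20.8 and 18.4 in WT and Rescue preB. All 7 counting intervals overlapped, from 13.8 at the lowest to 25.8 at the highest, so no order of the libraries could be given. The intron 5 element at chr7:25106488-25107616 had 14.2, 12.8 and 14.7 in WT, Erg KO and Rescue pre-proB, 48.2 and 46.1 in WT and Rescue proB, and 68.8 and 75.5 in WT and Rescue preB. Its pre-proB and later values did not overlap, and WT proB was 3.40 times WT pre-proB. Of all regions open in both of these libraries, 13.8% were higher in WT proB by 2-fold or more. A neighbour in intron 5, 26500 bp past the start, was level at 14.4 to 17.9 in all 7 libraries. An intron 1 element 6406 bp past the start had 5.43, 4.4 and 5.72 in the pre-proB libraries, no peak in WT proB or preB, and 8.02 and 4.13 in Rescue proB and preB.

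A second intron 5 element of Pou2f2, chr7:25111995-25113216, printed above, was nearly absent early. It had 3.88 in WT pre-proB and no peak in Erg KO or Rescue pre-proB, then 21.6 and 11.4 in WT and Rescue proB and 36.6 and 30.9 in WT and Rescue preB. The intron 1 element with a MEF2 match, chr7:25129371-25130255, had 18, 18.9 and 24.5 in WT, Erg KO and Rescue pre-proB and 51.7 to 61.7 in the 4 later libraries. The weak intron 1 element beside it, 3369 bp past the start, had 3.88 in WT pre-proB, none in Erg KO and Rescue pre-proB and 7.57 to 11.1 later. In the other direction, an element 23425 bp before the start had 19.0, 20.2 and 20.7 in the pre-proB libraries, 3.32 in WT proB, none in WT preB, 11.1 in Rescue proB and 4.75 in Rescue preB. The 5′ end of the annotated gene body, where a retained-intron transcript starts, had an element of 13.2 to 15.7 in the pre-proB libraries and 18.5 to 31.3 later. The highest fold in the window, 126 to 193, was the promoter of Zfp574 and not an element of Pou2f2. An element 76213 bp before the start, in Dedd2, was called in WT proB alone, at 10.3.

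Pou2f1 (ENSMUSG00000026565, chr1:165865154-166002678), which encodes the widely expressed Oct1, had a steady main promoter and several later-stage introns. The main promoter fold was 65.5, 74.9 and 79.3 in WT, Erg KO and Rescue pre-proB, 78.3 and 75.3 in WT and Rescue proB, and 83.9 and 83.1 in WT and Rescue preB. WT pre-proB (58.7 to 72.9) and WT preB (75.8 to 92.8) were apart in counting error, while neighbours in the order were not. The internal promoter, chr1:165933664-165935873, differed more, with 39.0, 40.7 and 43.1 in WT, Erg KO and Rescue pre-proB against 74.2 and 67.3 in WT and Rescue proB and 81.3 and 69.5 in WT and Rescue preB. It held an octamer match, as did the printed intron 2 element.

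The intron 2 element, chr1:165927510-165928456, had no peak in the 3 pre-proB libraries and 20.3 and 21.8 in WT and Rescue proB and 24.1 and 30.5 in WT and Rescue preB. The intron 1 element with an EBF1 palindrome and an E2A site, chr1:165992894-165994510, was likewise absent early and had 22, 15.8, 23.2 and 20.6 in the same order. Another intron 1 element, chr1:165976229-165977311, was open early at 23.1, 20.2 and 25.2 in WT, Erg KO and Rescue pre-proB and reached 62.9 to 72.9 later. The highest in intron 1, 13460 bp before the nearest start, had 47.3, 44.5 and 43.6 in the same 3 libraries, 49.1 and 62.8 in WT and Rescue proB and 79.1 and 76.7 in WT and Rescue preB. Of the 170 elements, 19 (11.2% against 5.19% of all regions) were open in all 4 later libraries and in no pre-proB library, and 7 of them were at Pou2f1. In the downstream part of the window, inside Cd247, which encodes the T-cell receptor zeta chain, elements went both ways. The element at chr1:165854534-165856231 had 43.6, 48.7 and 52.2 in WT, Erg KO and Rescue pre-proB, 7.57 and 6.46 in WT and Rescue proB and 8.11 and 5.78 in WT and Rescue preB. The element 85817 bp past the nearest Pou2f1 start had 7.95, 4.76 and 5 in the pre-proB libraries and 27.6 to 39.0 later.

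Mef2c (ENSMUSG00000005583, chr13:83504034-83667080, plus strand) had the highest promoter of the 6 genes in every library. The fold at its most downstream promoter cluster in the basic annotation, chr13:83571298-83575360, was 229, 235 and 254 in WT, Erg KO and Rescue pre-proB, 195 and 189 in WT and Rescue proB, and 143 and 146 in WT and Rescue preB. The order ran from the 3 pre-proB libraries through the proB to the preB libraries, and the intervals of WT pre-proB (216 to 243), WT proB (184 to 207) and WT preB (132 to 154) did not meet. Within a stage, WT, Erg KO and Rescue intervals overlapped. The upstream promoter element, chr13:83522431-83527257, ran the other way, from 43.6, 45.6 and 53.4 in WT, Erg KO and Rescue pre-proB to 57.2 and 66.6 in WT and Rescue proB and 73.0 and 78.0 in WT and Rescue preB. The first cluster of annotated starts of Mef2c had no promoter peak in any library. The highest summit of the downstream promoter element, in Rescue pre-proB, lay 1387 bp before the nearest start of the basic annotation.

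Inside Mef2c, the printed intron 8 element (chr13:83648346-83650700) had 24.4, 24.4 and 21.3 in WT, Erg KO and Rescue pre-proB, 98.2 and 102 in WT and Rescue proB, and 97.1 and 101 in WT and Rescue preB. The 4 later values lay together near 4 times the 3 early ones, with a WT proB ratio of 4.02. It held none of the 6 motifs. The element just before it in intron 8 was absent early and had 10.3 to 16.3 later. In intron 4 one element stayed at 167 to 205 in all libraries, and another, chr13:83596830-83598206, had 36.6, 35.5 and 41.5 in the pre-proB libraries, 4.06 and 11.8 in WT and Rescue proB and 5.92 and 8.05 in WT and Rescue preB. An intron 3 element, 9904 bp past the nearest start, had 11.8 to 12.7 in the pre-proB libraries, 3.56 in Rescue proB and no peak in the other later libraries.

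Mef2c also held 4 elements, open in all 7 libraries, whose fold differed by stage or genotype. These were chosen after their values were seen. An intron 1 element 6061 bp before the nearest start had 22.2 to 23.1 in the pre-proB libraries, 29.5 and 39.4 in WT and Rescue proB and 51.9 and 58.8 in WT and Rescue preB, rising in the order of the stages in both genotypes. The element 30070 bp upstream of the first start, at the edge of the window, ran the same way, from 4.65 to 5.68 early through 6.65 and 12.7 to 17.3 and 19. An intron 2 element with a MEF2 match, 7465 bp before the nearest start, ran the other way, with 38.8, 37.6 and 35.7 in WT, Erg KO and Rescue pre-proB, 20.9 and 24.7 at proB and 14.5 and 22.1 at preB. An element in intron 4, 29237 bp past the nearest start, had 26.2, 29.1 and 26.6 in WT, Erg KO and Rescue pre-proB, 21.2 in WT proB and 41.9 in Rescue proB, and WT and Rescue preB were at 37.9 and 42.7. With 1 library per group, none of these differences has a replicate check.

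Mef2d (ENSMUSG00000001419, chr3:88142372-88172086, plus strand) had 12 to 16 peaks with no order by stage. The fold of the peak at its start was 73.7, 77 and 88.3 in WT, Erg KO and Rescue pre-proB, 51.3 and 59.0 in WT and Rescue proB, and 65.1 and 63.1 in WT and Rescue preB, the 3 pre-proB libraries being above the others. The whole promoter element, taken at its highest peak, had no such order. It had the same values early, then 76.2 and 60.6 in WT and Rescue proB and 83.1 and 85.4 in WT and Rescue preB. The largest difference was at the printed element 14422 bp upstream (chr3:88127584-88128375). It had 47.3, 52.8 and 54.5 in WT, Erg KO and Rescue pre-proB, 6.09 and 21.4 in WT and Rescue proB and 8.11 and 13.4 in WT and Rescue preB. An element 8666 bp upstream ran the other way, with 4.47 to 5.62 early and 10.3 to 13.7 later. The element at the promoter of the antisense transcript 1700113A16Rik had 74.8 to 98.2, the highest of the window in 6 of the 7 libraries, and in WT proB another peak, inside the gene and joined to its promoter element, was above it at 76.2.

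Mef2a (ENSMUSG00000030557, chr7:67231163-67372858) had a promoter peak in every library and fewer peaks later, 17 to 20 in the pre-proB libraries and 7 to 12 after. The promoter fold was 30.4, 24.9 and 29.0 in WT, Erg KO and Rescue pre-proB, 34.5 and 35 in WT and Rescue proB, and 34.8 and 40.6 in WT and Rescue preB. The interval of Erg KO pre-proB (20.9 to 29.5) met none of the 4 later ones (29.7 at the lowest). That of WT pre-proB (25.9 to 35.6) overlapped all 4. That of Rescue pre-proB (24.7 to 33.8) overlapped all but Rescue preB (35.2 to 46.7). The printed intron 10 element (chr7:67238750-67239567), which also lies in Lysmd4 and holds a MEF2 match, had 64.9, 65.0 and 80.8 in WT, Erg KO and Rescue pre-proB, 7.94 and 21.4 in WT and Rescue proB and no peak in either preB library. A neighbour 134905 bp past the start had 18.2, 17.0 and 16.4 in WT, Erg KO and Rescue pre-proB, 7.57 in Rescue proB and no peak in the other later libraries. The intron 2 element, chr7:67320257-67320965, had 18.2, 20.5 and 25.7, then 7.35 in Rescue proB alone. Of the 170 elements, 8 (4.71% against 11.5% of all regions) were open in the 3 pre-proB libraries and no other, and 5 of them were at Mef2a. The element at the promoter of Lysmd4 had 43.2 to 86.8 and was the highest of the window in the 4 later libraries, while the intron 10 element was the highest in the 3 pre-proB libraries. The maps of the Pou2af1, Mef2a and Pou2f2 windows place these elements along each gene.

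**Figure D3:**
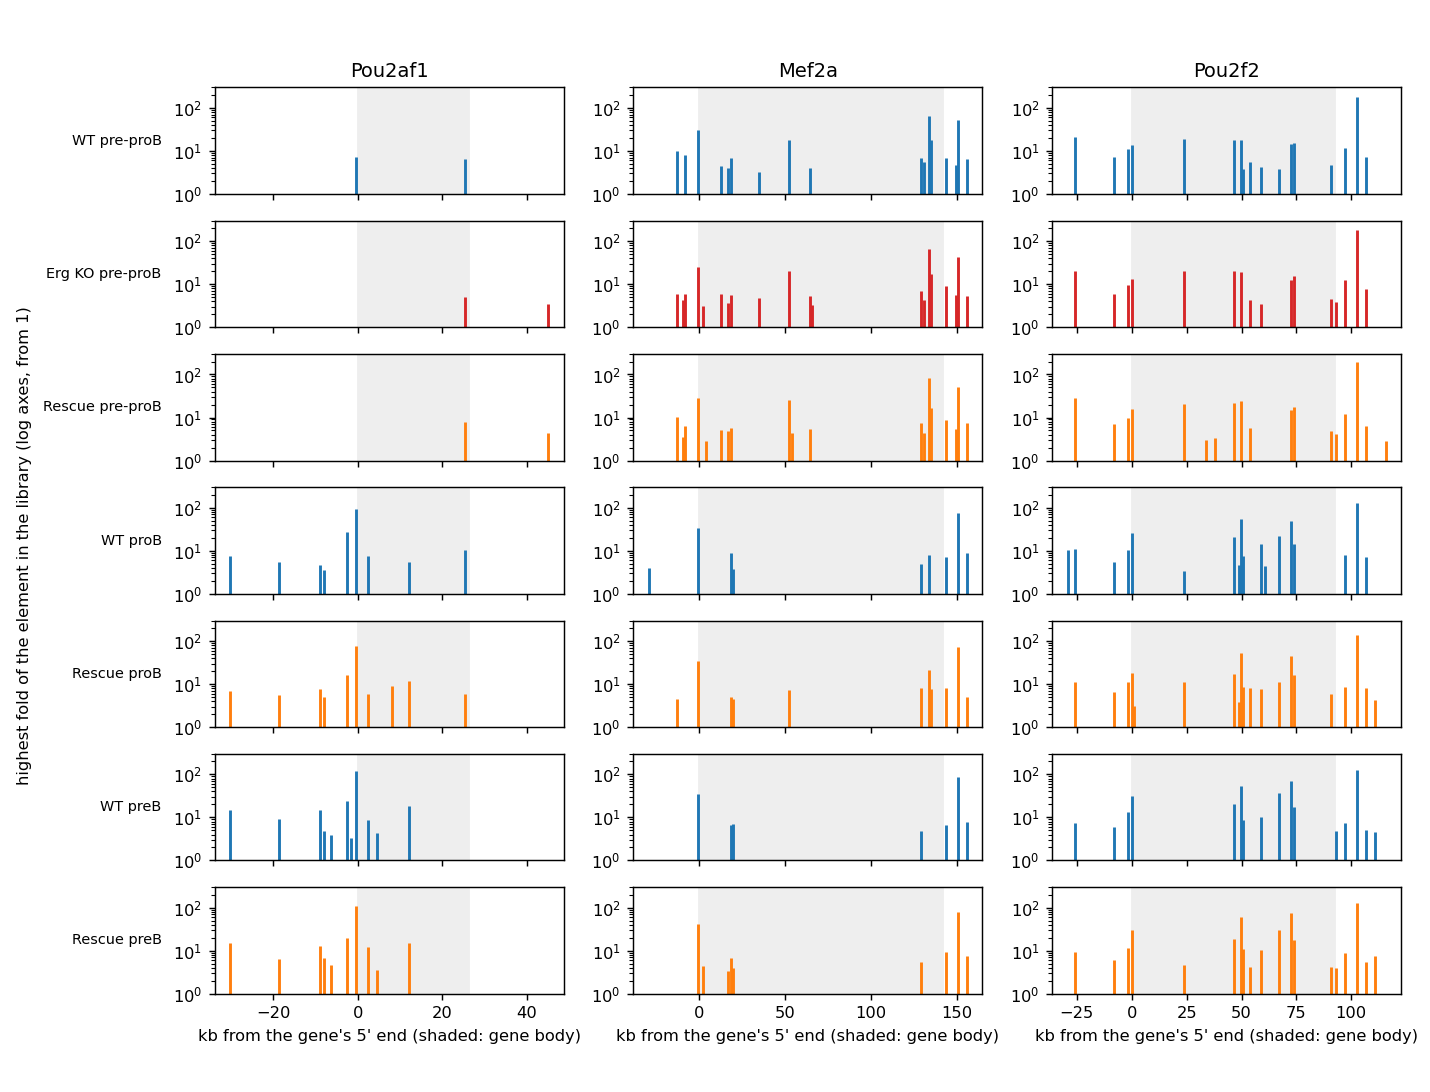
Fold of each element (log axes) against its distance in kb from the 5′ end of the annotated gene body (shaded) for Pou2af1, Mef2a and Pou2f2, with 1 row per library, WT in blue, Erg KO in red and Rescue in orange. The 3 pre-proB rows resemble each other, with the Pou2af1 promoter missing in Erg KO and Rescue, and the later rows gain Pou2af1 elements and lose Mef2a ones.

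The contrast between WT and Erg KO at the pre-proB stage asks what Erg loss does to open chromatin at the stage where development stops. At the 6 loci, 80 elements were open in both libraries and none differed by 2-fold or more in either direction. Across the genome 0.28% of shared regions were higher and 0.27% lower in Erg KO past that limit. The median ratio of Erg KO to WT was 0.99 at the elements and 1.04 over all shared regions. No Erg KO peak overlapped 12 of the 100 WT peaks (12%, with a 95% Wilson interval of 7% to 19.8%), against 6.88% of the whole list. In the other direction, 18 of 107 Erg KO peaks (16.8%, 10.9% to 25%) lacked a WT counterpart, against 13.6%. The 12 WT peaks were 6 at Pou2f1, 3 at Mef2c, 2 at Pou2f2, 1 at Pou2af1 and none at Mef2a and Mef2d. Of the elements called in WT and not in Erg KO, the Pou2af1 promoter was the highest, at 7.37. That was below the median fold of the whole WT pre-proB list, 8.92. The next were 4.46 at 2 Pou2f1 elements, and 4.07 at a Mef2c intron 2 element and at another Pou2f1 element. The highest without a WT peak was 4.21, at elements of Mef2a, Mef2d and Pou2f1.

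The Rescue pre-proB library, which is also Erg-deficient, was compared with the same WT library. Of the 100 WT peaks 15 (15%, 9.31% to 23.3%) had no Rescue peak, against 5.88% of the list, and 24 of 108 Rescue peaks (22.2%, 15.4% to 30.9%) had no WT peak, against 15.6%. None of 80 shared elements was past 2-fold, with 0.537% of shared regions higher and 0.275% lower genome-wide. The median ratio of Rescue to WT was 1.05 at the elements and 1.11 over all shared regions. Elements with a WT pre-proB peak and none in either Erg-deficient pre-proB library numbered 8 of 170 (4.71%), against 2.36% of all regions, and 8 of 170 had the opposite pattern, against 5.65%. Both comparisons rest on a single WT pre-proB library. The 8 were 3 at Pou2f1, 2 at Mef2c, 2 at Pou2f2 and 1 at Pou2af1. Those at Pou2f2 and the Pou2af1 promoter were higher in every later library, Rescue included. So was the Pou2f1 element 83846 bp past the nearest start, with 4.46 in WT pre-proB and 5.79 to 12.9 later.

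**Figure D4:**
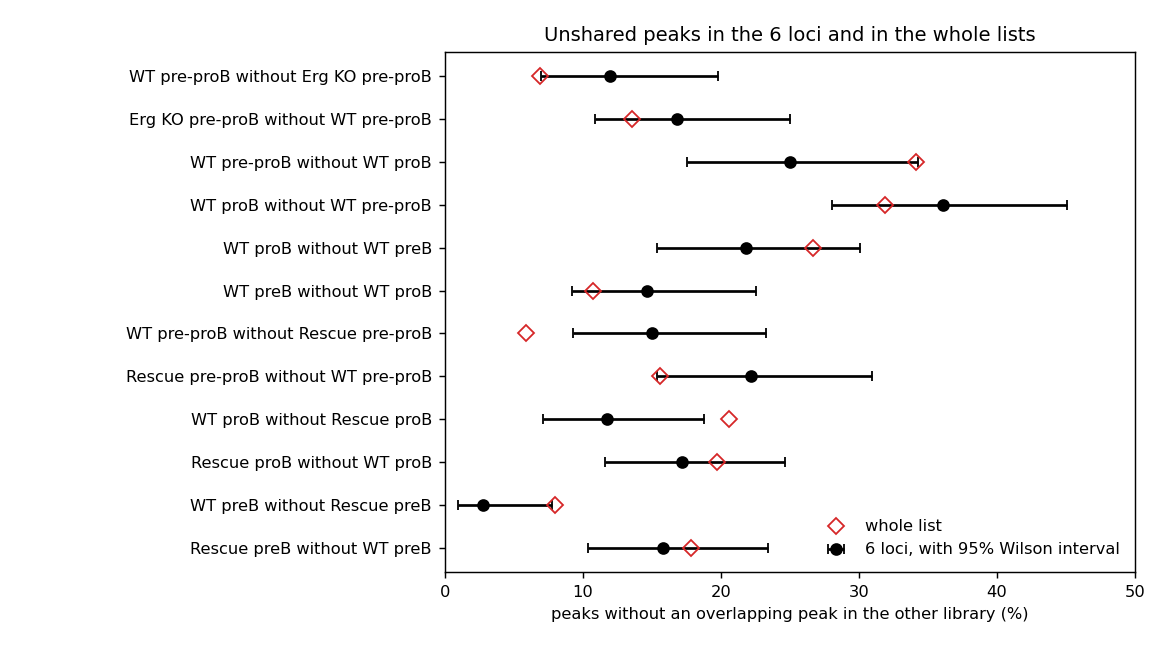
Share of peaks (percent) in the 6 loci with no overlapping peak in the other library (black points, with 95% Wilson intervals for counting error) and the same share over the whole list (red diamonds), for 12 directed comparisons. The whole-list value lies outside the interval for WT pre-proB without Erg KO or Rescue pre-proB peaks, where the loci are higher, and for WT proB and preB without a Rescue peak, where they are lower. For WT without Erg KO pre-proB peaks it is barely outside, at 6.88% with the interval starting at 7%.

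From pre-proB to proB, the intervals of both unshared shares at the WT loci held the share over all peaks. Of 100 WT pre-proB peaks 25 (25%, 17.5% to 34.3%) had no WT proB peak, against 34.1%, and 43 of 119 WT proB peaks (36.1%, 28.1% to 45.1%) had no pre-proB peak, against 31.9%. By gene, 10 of 17 pre-proB peaks at Mef2a had no proB peak, and 8 of 10 proB peaks at Pou2af1 and 15 of 34 at Pou2f1 had no pre-proB peak. Of 68 elements open in both, 12 were higher in proB by 2-fold or more, 17.6% against 13.8% of regions, and 5 were lower, 7.35% against 16.0%. The 12 were 5 at Pou2f1, 4 at Pou2f2 and 1 each at Mef2c, Mef2d and Pou2af1, and the 5 were 1 each at the genes other than Pou2af1. From proB to preB, 26 of 119 proB peaks (21.8%) had no preB peak, against 26.7%, and 16 of 109 preB peaks (14.7%) had no proB peak, against 10.7%. Of 82 shared elements 4 were higher in preB past 2-fold, against 5.18% of regions, and none lower, against 8.53%. They were 2 at Pou2af1, with ratios of 3.36 and 3.23, and 2 at Mef2c, with 2.61 and 2.27.

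The Rescue proB and preB libraries show these loci in cells that passed the block without Erg. Of 119 WT proB peaks 14 (11.8%, 7.14% to 18.8%) had no Rescue proB peak, against 20.6%, and 22 of 128 Rescue proB peaks (17.2%) had no WT proB peak, against 19.8%. Of 109 WT preB peaks 3 (2.75%, 0.94% to 7.78%) had no Rescue preB peak, against 8.02%, and 19 of 120 Rescue preB peaks (15.8%) had no WT preB peak, against 17.9%. No element was open in both WT later libraries and in neither Rescue one, against 1.33% of all regions. In the opposite pattern, 8 of 170 elements (4.71%) were open in both Rescue later libraries and in neither WT one, against 2.37% of all regions, and 5 of the 8 were at Mef2c. These 8 were weak, with Rescue folds of 8.02 at most. Of the 5 at Mef2c, the elements 9776 bp and 2615 bp from a start had 8.34 and 4.85 in WT pre-proB, 3.79 and 4.23 in Rescue proB and 3.09 and 3.3 in Rescue preB.

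At preB none of 90 shared elements was past 2-fold, against 3.05% of regions higher and 0.885% lower in Rescue.

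At proB, 5 of 91 shared elements were higher in Rescue by 2-fold or more, against 5.32% of regions, and 1 was lower, against 6.52%. The 5 were the upstream Mef2d element, with a ratio of 3.51, the Pou2f2 element 23425 bp before the start, with 3.35, the intron 4 Mef2c element, with 2.91, the intron 10 Mef2a element, with 2.69, and the intron 1 Pou2af1 element 12032 bp past the start, with 2.16. For the first 4 the Rescue proB fold lay between those of WT pre-proB and WT proB, as given above for each, and WT proB enters both of these comparisons. The Cd247 element near Pou2f1 differed from them, at 6.46 in Rescue proB and 7.57 in WT proB. The 1 lower element, also in Cd247, had 5.79 in Rescue proB and 12.9 in WT proB. The scatter plots of element folds show the 3 comparisons side by side.

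**Figure D5:**
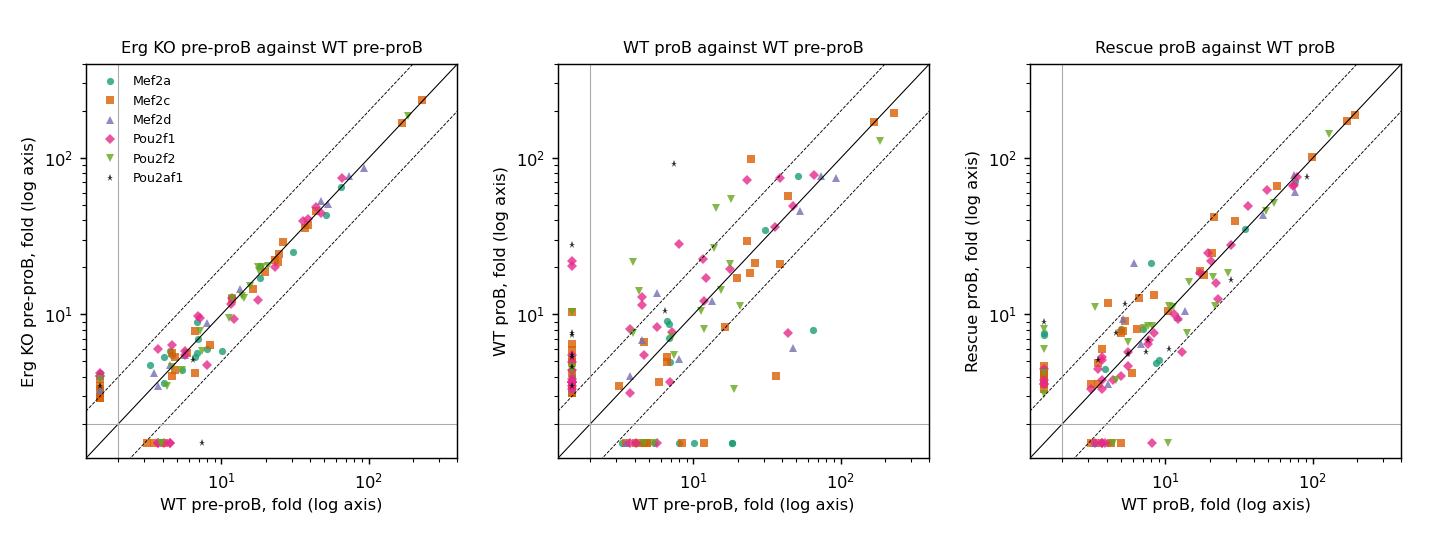
Fold of each element in 1 library against another (log axes), for Erg KO against WT pre-proB, WT proB against WT pre-proB and Rescue proB against WT proB, with the line of equality, dashed lines at 2-fold and elements with no peak in a library placed in the strip beyond the grey line. Elements open in both pre-proB libraries lie inside the dashed lines, and the stage comparison scatters widely.

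The genes whose promoter folds were most like those of each member were found by the root mean square difference of log2 fold over the 7 libraries, an absent promoter being set to a fold of 1. For Pou2af1 these were Bsnd at 0.44, Sorbs2 at 0.50 and Slc17a4 at 0.57. The measure itself selects for the same libraries with and without a promoter peak. The nearest genes of the steadier members lay closer, Mtmr14 at 0.05 for Pou2f1, Tmem245 at 0.06 for Mef2d, Mrpl20 at 0.07 for Mef2a, Mul1 at 0.09 for Pou2f2 and Zfp622 at 0.16 for Mef2c.

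A list of 17 partner genes of the 2 families was read at the promoter in the same way, and 15 to 17 had a promoter peak in each library, against the 61.4% to 65.5% of all coding genes. The family members Mef2b and Pou2f3 differed, Mef2b having 48.0 to 75.2 in all libraries and Pou2f3 a single weak peak, 4.06 in WT proB. Of the 5 MEF2 corepressors, the class IIa histone deacetylases Hdac4, Hdac5 and Hdac7 and the calcineurin-binding Cabin1 were open in every library. Hdac9, the remaining deacetylase, had no promoter peak in the 3 pre-proB libraries and 42.6 in WT proB, 74.1 in WT preB, 57.5 in Rescue proB and 88.5 in Rescue preB. Its early and later libraries did not overlap, and how many promoters share this pattern was not counted.

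The kinases Mapk7 and Mapk14 and the acetyltransferase Ep300, which act on MEF2 proteins, stayed within 26 to 62.1. Among 4 genes known as targets of Oct2 or Pou2af1, the chemokine receptor gene Cxcr5 had 5.04, 3.66 and 3.57 in WT, Erg KO and Rescue pre-proB and 43.2 in WT proB, 56.5 in WT preB, 32.1 in Rescue proB and 51.0 in Rescue preB. The ETS factor gene Spib had 48.1, 49.8 and 55.9 early, 83.3 and 126 in WT and Rescue proB and 174 and 165 in WT and Rescue preB. The scavenger receptor gene Cd36 had 13.7 to 16.5 early and 32.7 to 54.5 later, and the kinase gene Btk, needed for B-cell receptor signals, 13.4 to 17.3 throughout. Of 3 MEF2 targets the nuclear receptor gene Nr4a1 had 22.4 to 25.7 early and 38.3 to 47.7 later, and Klf2 155 to 179 early and 101 to 132 later. Jun had 165 to 230, with early and later libraries overlapping.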

How the data were processed

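The members, the gene lists and the motifs were chosen with earlier results of these data known. ATAC-seq was done on sorted pre-proB, proB and preB cells. The authors aligned paired-end reads to mm10 with Bowtie2 and called peaks with MACS2, per library and without pooling. The submitters' processing notes also name CASAVA 1.8.2 and Picard, while the sources used here give no version for the other tools, no options, no duplicate handling, no read shift and no control. The methods name sonication and the labels the Tn5 enzyme, so fragment ends cannot be interpreted further.

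Each deposited list had 10 columns. The authors deposited a score, which equalled the whole part of 10 times the −log10 q. The fold is a ratio the authors deposited, of summit pileup to background pileup with 1 added to both. For every summit the authors deposited a −log10 p-value, a −log10 q-value and an offset in bp. The lists hold no read totals. Background and summit pileups were recovered from the folds, 100% of which were multiples of 1 step per library to within 0.02 steps.

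Lists were read with pandas 2.3.3 and numpy 2.4.6 (Python 3.11.15), and intervals came from scipy 1.17.1. Groups followed the titles. Peaks were shared when at least 1 bp overlapped, and the 21 chromosomes of the lists lay within GRCm38 lengths. Genes were those of the GENCODE M21 basic annotation. The retained-intron start and the intron 4 start of Pou2f2 came from the full annotation. The named elements were, for each gene, the promoter elements, the highest element and up to 2 elements in each direction of each comparison, those of the highest fold among elements called in 1 library only. The elements with large fold differences (Mef2c introns 1, 2, 4 and 8 and the edge of its window, Mef2d upstream, Mef2a intron 10, Pou2f1 intron 1, the Pou2f2 introns and those in Cd247) and the 8 printed windows were chosen after their values were seen. The overlap rule, plain and with the 50% reciprocal limit, and the recovery of the fold step were tested on simulated lists. The 2-fold counts were not. No test between groups was run, with 1 library in each. Alternatives were lists cut to equal length (76465 peaks), a −log10 q of at least 10, a 50% reciprocal overlap, the gene body alone, a 100 kb flank, a 2500 bp promoter window and the Rescue stages by source name.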

Additional observations from a re-analysis of the deposited data

How the results depend on the processing

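Of the 6 genes, the number with a promoter peak stayed at 6 for WT and at 5 for both Erg-deficient libraries of the pre-proB stage under all 3 alternatives tried for it. The shares kept within their counting interval with the gene body alone and with a 100 kb flank. Shares over the whole lists were taken as deposited only. Whether the loci differ from the whole lists under an alternative was therefore not assessed. With lists of equal length, the share of peaks without a counterpart moved to 4.11% for Erg KO against WT pre-proB, 12.4% for WT proB against preB, 9.09% for WT against Rescue pre-proB, 2.82% for Rescue against WT pre-proB and 9.52% for Rescue against WT preB. With a −log10 q of at least 10, the same 5 moved to 9.72%, 12.9%, 5.71%, 14.5% and 9.88%. The share for WT against Erg KO pre-proB, 12% as deposited, stayed inside its interval. It was 9.09% with lists of equal length and 7.14% with that q limit. With a 50% reciprocal overlap the share became 43.0% for WT pre-proB against proB, 52.1% for proB against pre-proB, 27.7% for WT against Rescue proB, 32.8% for Rescue against WT proB, 18.3% for WT against Rescue preB and 25.8% for Rescue against WT preB. With stages by source name it became 37.5% for Rescue against WT pre-proB, 37.8% and 36.1% for WT against Rescue proB and the reverse, and 11% for WT against Rescue preB. No paired analysis was possible because each group had 1 library and the result comes from no test. Library depth limits weak peaks, since shorter lists drop them, and the spread between animals is unknown.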
